A study of Homo sapiens with 9 samples.

Results

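The genes described are 10 members of the interleukin-6 (IL-6) family and its receptor system, out of 61552 genes listed in each library. They are 4 ligands (IL6, IL11, LIF and CLCF1), 5 receptors (IL6ST, IL6R, IL11RA, LIFR and OSMR) and 1 feedback inhibitor (SOCS3). They were chosen by family and with their values against the control already known, since IL6 and IL11 had been among the most lowered genes of these same libraries. Their differences from the control are therefore a description, and the calls counted for them further on support nothing. All 10 were among the 16570 genes that passed the filter on low values.

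MDA-MB-231, an established human triple-negative breast cancer (TNBC) cell line of genotype WT, was grown in DMEM with fetal serum and received 2-deoxy-glucose (2-DG) for 24 h at 0 mM (control, phosphate-buffered saline), 10 mM or 20 mM, with 3 libraries per condition. 2-DG enters cells through glucose transporters and stalls glycolysis, and the series asks which genes respond when lactate production is altered. Cells treated with lactate are not analysed here. Values are FPKM, reads per gene scaled to gene length and to library size, and the totals recovered from them ranged from 30974968 to 40843638 reads.

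The family is defined by a shared signaling chain, gp130, which IL6ST encodes. IL-6 first binds IL6R and interleukin-11 (IL-11) first binds IL11RA, while LIF pairs gp130 with LIFR. CLCF1 acts through a receptor that also contains LIFR and gp130, and OSMR joins gp130 to form a receptor for oncostatin M. These receptors activate JAK kinases and the transcription factor STAT3, and SOCS3, itself a STAT3 target, binds gp130 and shuts the signal off. In carcinoma cells, IL-6 and IL-11 are best known as secreted products of NF-kB and AP-1 activity that feed STAT3 signaling in the tumor and its surroundings.

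The upstream sequences of IL6 and IL11 are shown because these ligands carried the largest differences from the control. They are printed 5′ to 3′ in the direction of transcription from the RefSeq promoter table (GRCh38.p14), for IL6 from base -250 to base -54 before the annotated start (chr7:22726950-22727146, plus strand) and for IL11 from base -250 to base -1 (chr19:55370464-55370713, minus strand). Capitals mark the letters that matched a searched motif.
IL6: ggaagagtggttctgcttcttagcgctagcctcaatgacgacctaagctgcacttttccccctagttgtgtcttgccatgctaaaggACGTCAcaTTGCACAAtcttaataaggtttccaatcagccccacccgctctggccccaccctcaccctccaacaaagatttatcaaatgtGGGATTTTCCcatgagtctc
IL11: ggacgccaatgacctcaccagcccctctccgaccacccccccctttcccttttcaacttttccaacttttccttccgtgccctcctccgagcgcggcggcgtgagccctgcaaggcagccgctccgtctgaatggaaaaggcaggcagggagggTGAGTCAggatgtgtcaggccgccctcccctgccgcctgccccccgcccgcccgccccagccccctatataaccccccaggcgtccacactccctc

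Read from left to right, the capitals in IL6 are a match to the cAMP response element (CRE) core on the opposite strand at -163 to -158, a C/EBP match at -155 to -148 and an NF-kB match at -73 to -64. The capitals in IL11 are an AP-1 match, TGAGTCA, at -96 to -90. The motifs were searched on both strands as TGACGT for CRE, TTGCNNAA for C/EBP, TGANTCA for AP-1, TTCNNNGAA for STAT and, by its name, NF-kB. In windows of 250 bases before the start, the NF-kB motif was found in 5.21% of the 35116 promoters of the table, AP-1 in 6.57%, CRE in 7.1%, C/EBP in 9.05% and STAT in 6.57%. Of the other members, LIFR had a STAT match outside annotated exons in its first promoter entry. In its second entry it had C/EBP and STAT matches, both inside annotated exons. OSMR had a C/EBP match, also inside an annotated exon. LIFR, IL11RA and SOCS3 have more than 1 entry, while the shares above are per entry. No match was found in these windows for IL6ST, IL6R, IL11RA or SOCS3. LIF and CLCF1 were not searched. A match is a run of letters and not a measured binding site.

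In the control the ligands were the better expressed side of the family. On the FPKM scale, which is per length, the order of the control levels was IL6, LIF, CLCF1, OSMR, IL11, SOCS3, IL6ST, LIFR, IL6R and IL11RA, from 48.5 ± 2.81 FPKM for IL6 to 0.173 ± 0.0571 for IL11RA (SD, n = 3). In that order the libraries of CLCF1 and OSMR, of OSMR and IL11, and of SOCS3 and IL6ST overlapped. At 20 mM 2-DG the order was LIF, OSMR, CLCF1, IL6ST, SOCS3, IL6, IL11, LIFR, IL6R and IL11RA. There the libraries of OSMR and CLCF1 overlapped, as did those of SOCS3 and IL6 and those of IL11 and LIFR. On these values IL6 went from the first to the sixth place and LIF had the highest level. The level of IL6 depends on the length by which it was divided. The length that fits its deposited values is 4321 bases, against 2069 exon bases in the GENCODE release 29 annotation, and with the annotated length its control mean would be 101 FPKM, a factor of 2.09 that is the same in every library. Its 20 mM mean would be 17.2 FPKM, above the 14.6 FPKM of IL6ST, so its place in the order depends on the length.

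IL6 encodes the cytokine that names the family (ENSG00000136244, GRCh38 chromosome 7, 22725884 to 22732002, plus strand). It was at 48.8, 45.6 and 51.2 FPKM in the control libraries, at 11.9, 11.5 and 13.3 FPKM at 10 mM 2-DG and at 9.11, 7.96 and 7.6 FPKM at 20 mM 2-DG. Every 2-DG library lay below every control library, and every 20 mM library lay below every 10 mM library. The mean level was 3.95-fold lower at 10 mM and 5.9-fold lower at 20 mM 2-DG than in the control. The fitted differences in log2(FPKM + 1) were -1.90 (SE 0.08) and -2.43 (SE 0.08). These levels rest on 22287 (control), 5830 (10 mM) and 3674 (20 mM) recovered reads. In bulk RNA, fewer cells that carry a transcript and less of it per cell cannot be told apart. Exons of IL6 share 428 bases, 20.7% of its annotated exon bases, with AC073072.1 on the opposite strand, and the sources used here do not say whether counting used the strand.

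IL11 encodes a gp130 cytokine known from bone turnover and from the spread of breast cancer to bone (ENSG00000095752, chromosome 19, 55364389 to 55370463, minus strand). It was at 26.6, 25 and 21.9 FPKM in the control, at 3.66, 3.48 and 3.07 FPKM at 10 mM and at 3.54, 3.5 and 2.56 FPKM at 20 mM 2-DG. The 2-DG libraries of both doses lay far below the control libraries and overlapped each other. The mean level was 7.21-fold lower at 10 mM and 7.66-fold lower at 20 mM 2-DG, with fitted differences in log2(FPKM + 1) of -2.53 (SE 0.11) and -2.61 (SE 0.11).

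LIF and CLCF1, the other ligands, stayed close to their control level. LIF encodes leukemia inhibitory factor (ENSG00000128342, chromosome 22, 30240447 to 30246851, minus strand) and was at 41.5, 41.2 and 40 FPKM in the control, at 39.7, 37.4 and 36.7 FPKM at 10 mM and at 43.5, 42.8 and 41.8 FPKM at 20 mM 2-DG. Its 10 mM libraries lay just below and its 20 mM libraries just above the control libraries, with fitted differences in log2(FPKM + 1) of -0.11 and 0.06 (SE 0.05 each). CLCF1 encodes cardiotrophin-like cytokine factor (ENSG00000175505, chromosome 11, 67364168 to 67374177, minus strand) and was at 30.1, 29.5 and 29.4 FPKM in the control, at 28.4, 29 and 26.7 FPKM at 10 mM and at 30.1, 28.2 and 27.2 FPKM at 20 mM 2-DG. Its fitted differences were -0.08 and -0.06 (SE 0.06 each), and the 20 mM libraries overlapped the control libraries.

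**Figure D1:**
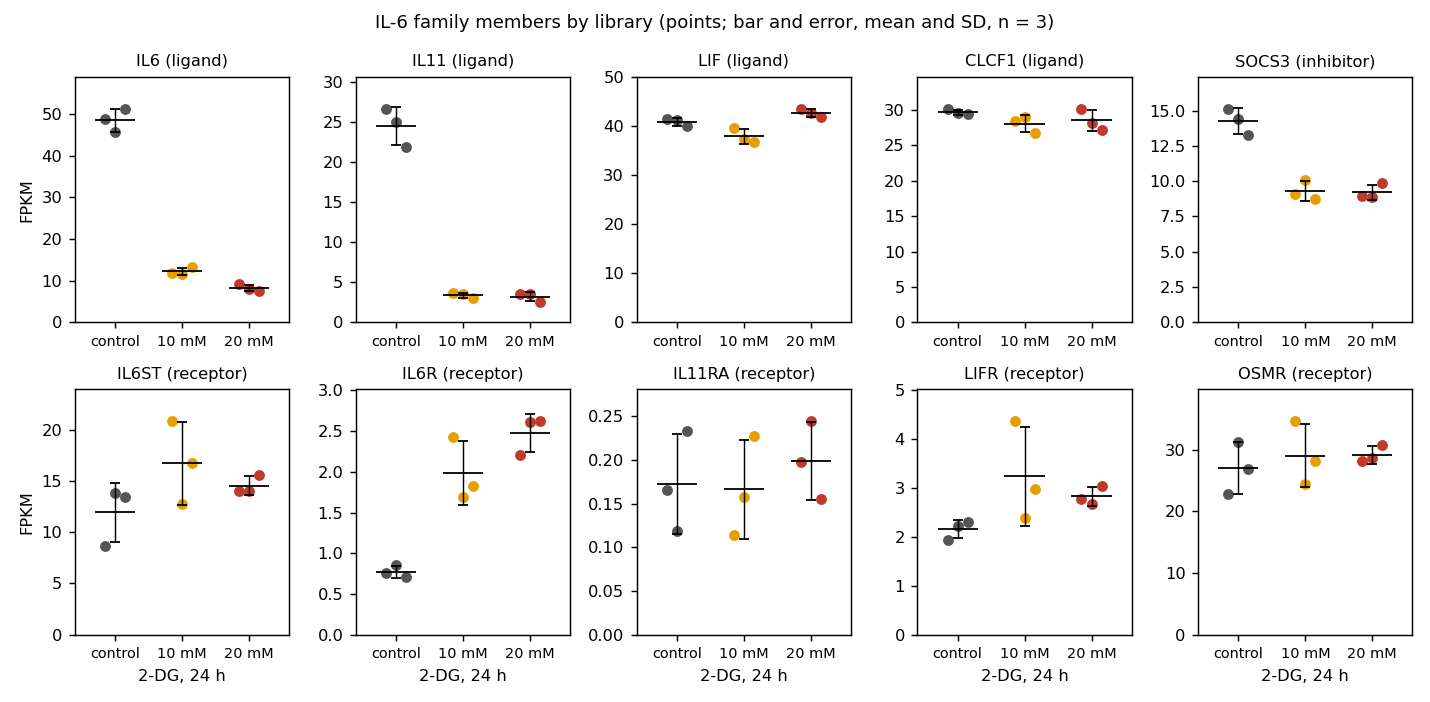
FPKM of the 10 members in each of the 9 libraries (points), with the mean and SD of 3 libraries per 2-DG dose (bars), each panel on its own linear axis from 0. IL6, IL11 and SOCS3 lie below the control at both doses and IL6R above it, while the 10 mM libraries of IL6ST, LIFR and OSMR spread widely, as do the control libraries of IL6ST and OSMR.

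Summed over the 4 ligands, the level went from 144 ± 3.06 FPKM in the control to 81.6 ± 1.96 at 10 mM and 82.7 ± 3.55 at 20 mM 2-DG (SD, n = 3). The make-up of this sum changed more than its size between the doses. The IL6 part was 33.8% ± 1.91 without 2-DG, 15.1% ± 1.42 with 10 mM and 9.95% ± 0.561 with 20 mM (SD, n = 3). IL11 made up 17.1% ± 1.46, 4.17% ± 0.278 and 3.87% ± 0.547 (SD, n = 3). LIF, whose own level hardly moved, made up 28.5% ± 0.586 of the control sum and 51.7% ± 1.21 of the sum at 20 mM 2-DG (SD, n = 3), and CLCF1 20.7% ± 0.208 and 34.5% ± 0.361 (SD, n = 3). These shares use the lengths behind the deposited values and would change with other lengths.

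**Figure D2:**
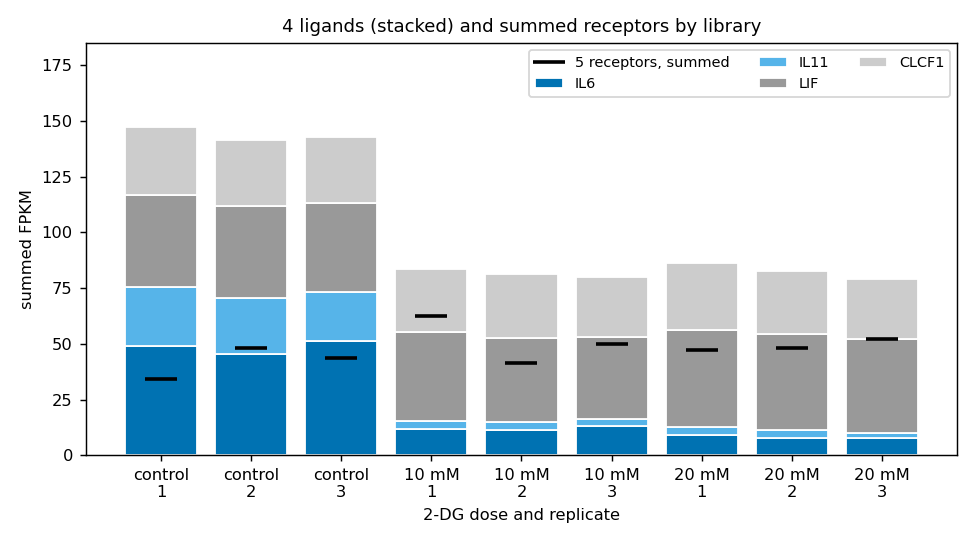
FPKM of the 4 ligands stacked for each library, with the summed FPKM of the 5 receptors as a black mark, by 2-DG dose and replicate number. The ligand sum is between 141 and 147 FPKM in the control libraries and between 79.2 and 86.3 FPKM in the 2-DG libraries, and the missing part is the IL6 and IL11 share.

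Among the receptors, IL6R, the chain that binds IL-6 itself (ENSG00000160712, chromosome 1, 154405193 to 154469450, plus strand), was higher in every 2-DG library than in any control library. It was at 0.759, 0.854 and 0.705 FPKM in the control, at 2.43, 1.69 and 1.83 FPKM at 10 mM and at 2.21, 2.61 and 2.62 FPKM at 20 mM 2-DG. The mean level was 2.57-fold the control at 10 mM and 3.21-fold at 20 mM 2-DG, on 532, 1403 and 1671 recovered reads. The fitted differences in log2(FPKM + 1) were 0.74 and 0.97 (SE 0.11 each), which the pseudocount of 1 makes smaller than the log2 ratios of the means, 1.36 and 1.68. The ratio of IL6 to IL6R was 63.4 ± 9.62 without 2-DG, 6.34 ± 1.27 with 10 mM and 3.36 ± 0.665 with 20 mM (SD, n = 3).

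The other receptors differed less from the control. IL6ST, the shared gp130 chain (ENSG00000134352, chromosome 5, 55935095 to 55994993, minus strand), was at 8.63, 13.8 and 13.4 FPKM in the control, at 20.8, 12.7 and 16.7 FPKM at 10 mM and at 14, 14 and 15.6 FPKM at 20 mM 2-DG. The first control library was low and the first 10 mM library high, and the fitted differences of 0.46 and 0.29 (SE 0.19 each) became 0.26 and 0.09 without that control library. LIFR, the receptor of LIF (ENSG00000113594, chromosome 5, 38474963 to 38608354, minus strand), was at 1.94, 2.22 and 2.3 FPKM in the control, at 4.35, 2.37 and 2.97 FPKM at 10 mM and at 2.77, 2.66 and 3.04 FPKM at 20 mM 2-DG. Its libraries did not overlap the control at either dose, with fitted differences of 0.40 and 0.28 (SE 0.15 each). The 10 mM value of LIFR was 0.22 without the first 10 mM library and 0.55 without the second.

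OSMR, the receptor chain for oncostatin M (ENSG00000145623, chromosome 5, 38845858 to 38945596, plus strand), was at 22.9, 31.3 and 26.9 FPKM in the control, at 34.6, 24.4 and 28.2 FPKM at 10 mM and at 28.1, 28.6 and 30.8 FPKM at 20 mM 2-DG. The groups overlapped at both doses, with fitted differences of 0.10 and 0.12 (SE 0.13 each), and without the first control library these were -0.01 and 0.01. IL11RA, the chain that binds IL-11 (ENSG00000137070, chromosome 9, 34650702 to 34661892, plus strand), was near the lower end of what was measured. It was at 0.166, 0.119 and 0.233 FPKM in the control, at 0.114, 0.158 and 0.227 FPKM at 10 mM and at 0.197, 0.244 and 0.155 FPKM at 20 mM 2-DG, on 21 to 51 recovered reads per library. Its groups overlapped at both doses, and a change of IL11RA was not detectable at this depth. Its exons also share 334 bases with GALT and 410 with AL162231.3 on the same strand, and its values are uncertain to that extent.

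IL6ST, LIFR and OSMR are long transcripts, with lengths of 10117, 12159 and 7174 bases behind their FPKM values, and in every library they deviated to the same side as long genes in general, except IL6ST in the third 10 mM library. Long genes were here the 3119 tested genes longer than 7 kb with a mean of at least 1 FPKM. Their median deviation in log2(FPKM + 1) from the other replicates was -0.12 in the first control library. It was 0.16 in the first 10 mM library and -0.16 in the second 10 mM library. IL6ST deviated by -0.60, 0.48 and -0.52 in the same libraries, LIFR by -0.15, 0.55 and -0.45, and OSMR by -0.33, 0.39 and -0.34. Over the 1538 genes of up to 2 kb with a mean of at least 1 FPKM the medians had the opposite sign, 0.10, -0.19 and 0.17. IL6R, with a length of 6453 bases, deviated by -0.02, 0.32 and -0.21 in these libraries. The part of this pattern in the receptor values was not tested. The differences of IL6 from its other replicates in these libraries were 0.01, -0.05 and -0.12, small beside its difference from the control.

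**Figure D3:**
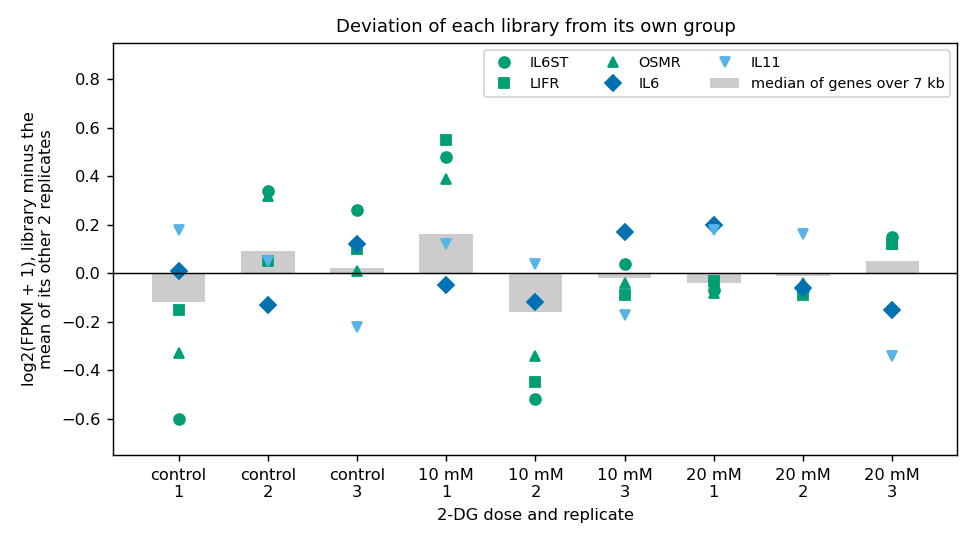
Deviation of each library from the mean of the other 2 of its group, in log2(FPKM + 1), for 3 long receptor transcripts, IL6 and IL11. Grey bars are the median over 3119 genes longer than 7 kb with a mean of at least 1 FPKM. IL6ST, LIFR and OSMR lie on the side of the grey bar in every library except the third 10 mM library, where IL6ST lies on the other side.

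SOCS3, the inhibitor (ENSG00000184557, chromosome 17, 78356778 to 78360077, minus strand), was at 15.1, 14.4 and 13.3 FPKM in the control, at 9.08, 10.1 and 8.74 FPKM at 10 mM and at 8.93, 8.87 and 9.84 FPKM at 20 mM 2-DG. All 2-DG libraries lay below all control libraries and the doses overlapped. The mean level was 1.54-fold and 1.55-fold lower than in the control, with fitted differences in log2(FPKM + 1) of -0.57 and -0.58 (SE 0.08 each).

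Ligands and receptors thus lay on opposite sides of the control when each side is described by its median. The median difference in log2(FPKM + 1) was -1.0 for the 4 ligands and 0.40 for the 5 receptors at 10 mM 2-DG, and -1.24 and 0.28 at 20 mM 2-DG, where all 16570 genes tested had medians of -0.01 and -0.02. The ligand median minus the receptor median was -1.40 and -1.52. Leaving out the first control and the first 10 mM library together, which was added once the data had been seen, the value at 10 mM was -1.10. The ligand median lies midway between IL6 and the nearly level pair LIF and CLCF1, with no ligand near it, and the receptor median is the value of LIFR at both doses. In absolute terms the receptor sum was 42.1 ± 7.06 FPKM without 2-DG, 51.2 ± 10.6 with 10 mM and 49.3 ± 2.67 with 20 mM (SD, n = 3), and the ranges of the 3 groups overlapped.

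**Figure D4:**
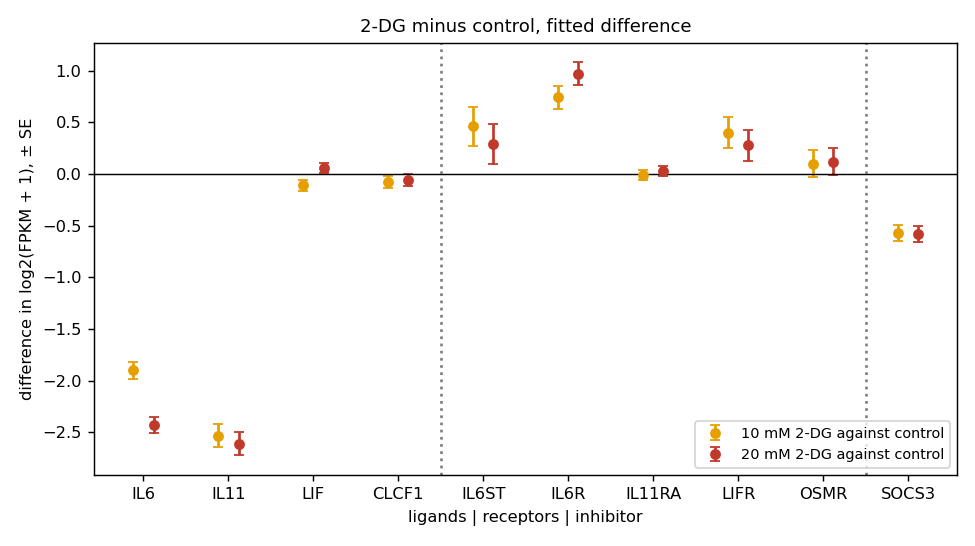
Fitted difference in log2(FPKM + 1) between 2-DG and control for the 10 members, with its SE, at 10 mM (orange) and 20 mM 2-DG (red), with dotted lines between ligands, receptors and inhibitor. IL6 and IL11 lie between -1.90 and -2.61, SOCS3 at -0.57 and -0.58, and IL6R at 0.74 and 0.97.

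With a Benjamini-Hochberg adjusted p under 0.05 in limma's test as the call, 3 of the 10 members were lower (IL6, IL11 and SOCS3) and 1 was higher (IL6R) than the control at 10 mM 2-DG, where 17.5% of all genes tested were called lower and 12.1% higher. At 20 mM 2-DG IL6, IL11 and SOCS3 were again called lower and IL6R higher, against 21.6% and 15.4% of all genes. With upper-quartile scaling the 10 mM split was 3 lower and 2 higher, LIFR being added. With an unadjusted p under 0.05 and a more than 2-fold difference on the log2(FPKM + 1) scale, only IL6 and IL11 were called at either dose, both lower, against 1.16% of all genes at 10 mM and 1.96% at 20 mM 2-DG. The libraries did not overlap the control for 7 of the 10 members at either dose, against 40.5% of all genes at 10 mM and 53.3% at 20 mM 2-DG. As the members were picked on these contrasts, nothing is read from these counts.

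The doses were also compared with each other. The 20 mM libraries had entered the choice of IL6 and IL11, so this comparison is not independent of it. Of 10 members 0 passed an adjusted p under 0.05 in limma's test, as did 0 of 16570 genes, which is 0% of them, and limma-voom on the recovered reads also called 0 members and 0 genes. At an unadjusted p under 0.05, 2 members (IL6 and LIF) and 1140 genes passed. IL6 was 1.49-fold lower at 20 mM than at 10 mM 2-DG, a difference in log2(FPKM + 1) of -0.53 (95% interval -0.71 to -0.35), with all 3 libraries at 20 mM below all 3 at 10 mM and an adjusted p of 0.11 in limma's test. Over the 17 alternatives this adjusted p ranged from 0.0806 to 0.421. LIF was 0.17 higher at 20 mM (95% interval 0.05 to 0.28, adjusted p = 0.477 in limma's test, 0.249 to 1 over the alternatives), again without overlap. The libraries of the 2 doses did not overlap for 11.9% of all genes. For IL6R the difference was 0.23 (95% interval -0.01 to 0.47) and for IL11 it was -0.07 (95% interval -0.33 to 0.18). The other 6 members had differences between -0.17 (IL6ST) and 0.04 (IL11RA).

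The remaining genes of the pathway were read from 7 lists of 71 genes in all, of which 63 were tested. These lists were chosen with earlier results of these data known. The counts and p-values given for them therefore describe these libraries and are not independent evidence. At 10 mM 2-DG, 6 of the 63 rose and 20 fell at an adjusted p under 0.05 (limma), against the 12.1% and 17.5% of all genes given above. With upper-quartile scaling the split was 11 and 19. The shares of all genes are those without that scaling and with all libraries, and none are given for the alternatives. At 20 mM 2-DG, 13 rose and 21 fell, against 15.4% and 21.6% of all genes. The 13 became 6 without the first 20 mM library, 8 without the third control library or without the second or the third 20 mM library, and 7 when all genes with a value above 0 were tested. The median difference over the 63 genes was -0.05 at 10 mM and -0.09 at 20 mM 2-DG, with -0.01 and -0.02 over all genes. Between the doses 0 of the 63 passed in limma's test and 0 in limma-voom. At an unadjusted p under 0.05, 10 of the 63 passed, as did 1140 of all 16570 genes. Differences given below are in log2(FPKM + 1) at 20 mM 2-DG against the control unless a dose is named. For genes at low levels the pseudocount of 1 makes them smaller than the log2 ratios of the mean levels.

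Of the 7 other ligands and ligand subunits, 4 passed the filter. EBI3, the shared subunit of interleukin-27 and interleukin-35, fell from 1.29 ± 0.0915 FPKM in the control to 0.587 ± 0.116 at 10 mM and 0.263 ± 0.0646 at 20 mM 2-DG (SD, n = 3), by 0.53 and 0.86 on the log2 scale (adjusted p = 0.000537 and 1.82e-05, limma). The mean level of EBI3 was 2.2-fold lower at 10 mM and 4.92-fold lower at 20 mM 2-DG than in the control. These levels rest on only 173 (control), 81 (10 mM) and 34 (20 mM) recovered reads. The study chose EBI3 on these samples, so its direction is not independent evidence. CNTF, ciliary neurotrophic factor, was called higher at 20 mM only, from 0.396 to 0.725 FPKM (difference 0.30, adjusted p = 0.014, limma). It had 80 recovered reads in the control and 143 at 20 mM. Without the second control library its adjusted p was 0.0506, and without the first 20 mM library 0.0551 (limma). The call was also lost with limma-voom (0.0553) and when all genes with a value above 0 were tested (0.0823, limma). CTF1 (cardiotrophin) had a difference of -0.36 and did not pass, but passed without the second control library (-0.57, adjusted p = 0.02, limma). OSM, the ligand of OSMR, had 5 recovered reads over the 9 libraries and IL31 also 5, and IL27 was listed at 0 in every library.

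Of the 3 other receptor chains, CNTFR, which CLCF1 needs, was listed at 0 in every library. IL31RA, which pairs with OSMR, had a difference of 0.34 at 20 mM 2-DG, from 1.93 to 2.72 FPKM (adjusted p = 0.0408, limma). That call was lost without any single library of the control or 20 mM groups, with adjusted p up to 0.137, and without the third 10 mM library (0.0561). IL27RA had a difference of 0.21 and did not pass.

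IL6R can be shed from the cell surface by the protease ADAM17, whose maturation the inactive rhomboid proteins RHBDF1 and RHBDF2 guide. Of 4 shedding genes 2 rose at 20 mM 2-DG, where 15.4% of all genes did. RHBDF1 rose from 19.2 ± 1.49 FPKM to 26.4 ± 0.614 (SD, n = 3), a difference of 0.44 (adjusted p = 0.000786, limma). ADAM17 rose from 3.41 ± 0.37 to 5.47 ± 0.297 FPKM (SD, n = 3), a difference of 0.56 (adjusted p = 0.0244, limma), and its adjusted p lay between 0.0518 and 0.0779 without the first or the third control library or any single 20 mM library. At 10 mM it passed only without the second 10 mM library (0.61, adjusted p = 0.00778, limma), with limma-voom or with upper-quartile scaling. ADAM10 and RHBDF2 did not pass.

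Of the 11 signal transducers 0 rose and 4 fell at each dose, where 17.5% (10 mM) and 21.6% (20 mM) of all genes fell. STAT3, the main transcription factor of the pathway, fell from 15 ± 0.882 FPKM to 12.1 ± 0.375 (SD, n = 3), by 0.29 on the log2 scale (adjusted p = 0.0135, limma). The call was lost without the second control (0.0532) or the second 20 mM library (0.0548) and with upper-quartile scaling (0.0516). The kinase TYK2 fell by 0.36 (adjusted p = 0.00197, limma). The adaptor GRB2 fell by 0.16 (adjusted p = 0.0253, limma), which was lost under both other scalings and without the third control or any single 20 mM library. At 10 mM 2-DG the calls of STAT3 and GRB2 were likewise lost without the third control library, and that of STAT3 also without the second control library or the second or the third 10 mM library. JAK1 and JAK2, the kinases bound to gp130, had differences of -0.05 and 0.04 and did not pass.

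Of the 12 other inhibitors, 3 fell at both doses and 1 rose at 20 mM 2-DG, where 21.6% of all genes fell and 15.4% rose. SOCS1, a relative of SOCS3 that blocks JAK kinases, fell from 3.01 ± 0.145 FPKM in the control to 1.58 ± 0.228 at 10 mM and 1.23 ± 0.242 at 20 mM 2-DG (SD, n = 3), by 0.64 and 0.85 on the log2 scale (adjusted p = 0.00164 and 0.000206, limma). The phosphatase PTPN6 fell by 0.64 at 20 mM (adjusted p = 7.46e-05, limma). Its mean level went from 1.38 to 0.523 FPKM, 2.64-fold lower. PTPN1 fell by 0.47 at 20 mM (adjusted p = 0.000269, limma), a mean level 1.4-fold lower. SOCS7 rose by 0.44 (adjusted p = 0.0454, limma), and that call was lost without the first or the third control library, without any single 20 mM library and without the third 10 mM library.

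**Figure D5:**
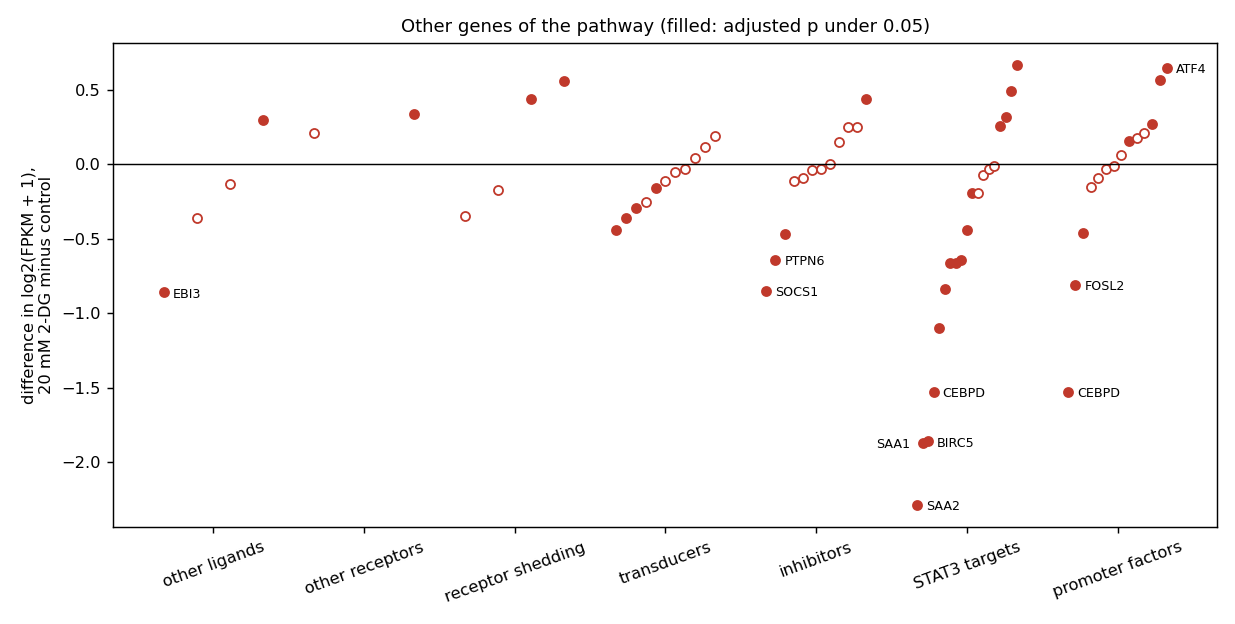
Difference in log2(FPKM + 1) between 20 mM 2-DG and control for the tested genes of the 7 other pathway lists, in order of value within each list, filled where limma's adjusted p was under 0.05. JUNB, FOS and CEBPD stand in 2 lists, and the largest falls are in the STAT3 target list, down to -2.29 for SAA2.

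STAT3 target genes were the list with the largest differences. Of 23 genes 19 were tested, of which 3 rose and 10 fell at 10 mM and 4 rose and 11 fell at 20 mM 2-DG, with medians of -0.30 and -0.44. Of all genes 12.1% rose and 17.5% fell at 10 mM, and 15.4% rose and 21.6% fell at 20 mM 2-DG. SAA1 and SAA2 encode acute phase proteins that IL-6 induces. SAA1 fell from 175 ± 9.85 FPKM to 58.6 ± 11.8 at 10 mM and 47.1 ± 2.08 at 20 mM 2-DG (SD, n = 3), by 1.58 and 1.87 on the log2 scale (adjusted p = 2.06e-05 and 4.16e-06, limma), and SAA2 fell by 2.29 at 20 mM (adjusted p = 2.31e-06, limma). The 2 genes are near-identical copies, so how their reads were divided is uncertain. CEBPD, a transcription factor of the acute phase response, fell from 36 ± 3.62 to 17.9 ± 3.13 and 11.8 ± 1.25 FPKM (SD, n = 3), by 0.98 and 1.53 (adjusted p = 0.000392 and 1.64e-05, limma). BIRC5, an apoptosis inhibitor that dividing cells make in mitosis, fell by 1.86 (adjusted p = 5.83e-07, limma). The 4 that rose at 20 mM were TIMP1 (0.67), MYC (0.49), VEGFA (0.32) and MCL1 (0.26), named after their values were seen. The call of MCL1 was lost without the first or the second control library or any single 20 mM library (adjusted p up to 0.113, limma). The targets therefore did not move in a single direction, with 11 lower and 4 higher at 20 mM 2-DG. Of those that fell, only the 4 with the largest differences are named here.

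The last list holds 14 transcription factors known to act on cytokine promoters, including the families whose motifs are capitalised in the IL6 and IL11 sequences above. At 20 mM 2-DG 4 rose and 3 fell, against 15.4% and 21.6% of all genes. CEBPB, a C/EBP factor, rose from 82.6 ± 6.46 to 123 ± 4.47 FPKM (SD, n = 3), by 0.57 (adjusted p = 0.000316, limma), while CEBPD, of the same family, is the one given above as lower. ATF4, which mediates the amino acid response, rose by 0.65 (adjusted p = 0.000135, limma), and FOSL2, an AP-1 subunit, fell from 33.1 ± 3.36 to 18.4 ± 0.183 FPKM (SD, n = 3), by 0.81 (adjusted p = 0.000267, limma). Named after their values were seen, the AP-1 subunit JUN rose by 0.27 (adjusted p = 0.0216, limma) and the NF-kB subunit RELA by 0.16 (adjusted p = 0.0312, limma). SMAD3, also named after its value was seen, fell by 0.46 (adjusted p = 0.000637, limma). The AP-1 subunits FOSL1 (0.18), JUND (0.06), JUNB (-0.01) and FOS (-0.03) did not pass. The NF-kB subunit NFKB1 (-0.09), CREB1 (-0.15) and SP1 (0.21) did not pass either. The call of JUN was lost without the third control or the first 20 mM library (adjusted p up to 0.0908), and that of RELA without the second or the third control library or any single 20 mM library (up to 0.124). These are transcript levels and not activities of the factors.

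The genes whose pattern over the 9 libraries was most like that of IL6, by Pearson's r of log2(FPKM + 1) among 10823 genes with a mean of at least 1 FPKM, were KIFC1 (0.998), KIF23, SRSF7, KPNA2 and MAD2L1 (0.997 each). KIFC1 and KIF23 are kinesins of the mitotic spindle and MAD2L1 is a spindle checkpoint gene. KIFC1 went from 66.2 ± 2.46 FPKM in the control to 22.2 ± 1.57 at 10 mM and 16.8 ± 0.465 at 20 mM 2-DG (SD, n = 3). In all, 737 genes had an r above 0.95 with IL6, so a value this high is common here, and IL11 reached 0.976. For IL11 the most like were TUBA1B (0.996), EWSR1 (0.995), ASB2 and FAM131A (0.994 each) and FDPS (0.993). These correlations describe the shared steps between 3 conditions in the same libraries and are given without a test.

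The markers read were those of a mesenchymal TNBC line in general, so they cannot identify the libraries as MDA-MB-231. The mesenchymal markers VIM, CD44, AXL, MSN and CAV1 were between 52.9 and 313 FPKM in every library, and ESR1 and PGR did not exceed 0.00829 and 0.0204 FPKM, with ERBB2 at 5.53 to 9.11. Of the 13 markers of leukocytes, fibroblasts and endothelium, 10 reached at most 0.232 FPKM, among them PTPRC, CD3E, DCN, PDGFRA and CDH5. CD14, PECAM1 and COL1A1 were detected, at up to 3.83, 1.95 and 1.33 FPKM. The leukocyte list summed to 2.49 to 4.05 FPKM in the control, 1.75 to 2.86 with 10 mM and 1.18 to 1.88 with 20 mM 2-DG, carried by CD14, and the endothelial list to 1.47 to 1.95, 1.12 to 1.45 and 0.854 to 1.05 FPKM, carried by PECAM1. The fibroblast list summed to 1.21 to 1.56, 0.902 to 1.04 and 0.964 to 1.35 FPKM. The part of these genes in the IL6 and IL11 differences was not tested.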

How the data were processed

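RNA-seq of 9 libraries, 3 per condition, was analysed. Per the labels, RNA was extracted with a Qiagen kit and libraries were made with a SMARTER kit. The authors deposited FPKM values, 1 file per library, and the submitters' processing notes name GRCh38 (hg38). The aligner, the counting tool and the annotation are not given in the sources used here. Because FPKM are not counts, limma 3.58.1 in R 4.3.3 was run on log2(FPKM + 1), with 9 libraries in a single fit, a variance trend and no block for replicate numbers. P-values were adjusted over 16570 genes (Benjamini-Hochberg). These had at least 10 recovered reads, scaled to the median depth, in 3 libraries, and 15 in all.

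Whole reads were recovered by searching the library totals and gene lengths that make all values whole within 0.002, which succeeded for 32805 of 32806 genes above 0. The GENCODE length fitted 16144 of these genes (49.2%), and for the others the length was searched. For a gene with reads in few libraries a fitting length is easily found, so there the success checks little. The recovered reads served the filter and limma-voom, and are not the authors' counts. Positions come from GENCODE release 29 by gene identifier. The fits were tested on simulated data.

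The labels do not say whether replicates were separate cultures, so p-values measure only the spread between these libraries, which may be technical. No 2 replicates agreed within sampling noise. The members and the gene lists were chosen with earlier results of these data known. Named were the 10 members, the other family ligands and receptors, up to 4 called genes with the largest difference at 20 mM 2-DG per other list, STAT3, JAK1, JAK2 and ADAM17, and the 5 genes most correlated with IL6 and with IL11. A few genes that this rule names are not reported here. Scaling, pseudocount, filter, test, threshold, block and libraries were varied as alternatives.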

Additional observations from a re-analysis of the deposited data

How the results depend on the processing

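The members were chosen on these contrasts, and the other pathway lists with earlier results known, so the counts of both are descriptions. Members called lower numbered 3 at each dose in every alternative with an adjusted p. At 10 mM 2-DG the number of members called higher was 1, and it was 2 with median-ratio and with upper-quartile scaling, 3 with limma-voom and 1 to 3 without single libraries (3 without the second 10 mM library). At 20 mM it was 1, and 1 to 2 without single libraries (2 without the first 10 mM library). LIFR and, at 10 mM with limma-voom or without the second 10 mM library, IL6ST were the members added. With an unadjusted p under 0.05 and a more than 2-fold difference, 0 members were higher at either dose, and of the other pathway genes 0 were higher and 3 lower at 10 mM, and 0 higher and 5 lower at 20 mM. The other pathway genes called higher at 10 mM numbered 11 with upper-quartile scaling and 5 to 8 without single libraries, and those lower 16 to 21. At 20 mM the higher ones numbered 7 when every gene with a value above 0 was tested and 6 to 14 without single libraries (6 without the first 20 mM library, 8 without the third control, the second or the third 20 mM library), and the lower ones 18 to 22. The ligand median minus the receptor median was -1.53 to -1.23 at 10 mM, -1.58 to -1.33 at 20 mM and -0.12 to 0.09 between the doses without single libraries, and -1.10 at 10 mM without the first control and the first 10 mM library together. The cause of these shifts was not tested. The deviations of same-numbered libraries correlated at -0.406 to 0.293, and those of differently numbered libraries of different groups at -0.23 to 0.521. With 3 libraries per group these values cannot show whether the numbers pair cultures. With the replicate block the counts of other pathway genes were 5 higher and 20 lower at 10 mM and 9 higher and 20 lower at 20 mM, those of the members did not change, and GRB2, SOCS7 and IL31RA lost their call at 20 mM. At 10 mM, IL31RA passed without the second 10 mM library, IL27RA without the first, and CNTF without the third 20 mM library. No called result changed sign. Depth limits IL11RA, OSM and IL31, and EBI3 and CNTF also rest on few reads.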
